A study of Mus musculus with 12 samples.

Results

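The genes described here are the collagen chains, the laminin chains and the integrin subunits of the mouse embryo at the head-fold stage, 45 genes in all that were read above background. They were chosen by gene name alone: a collagen name of the form Col, number, a, number, a laminin name of the form Lam, a, b or c and a number, or an integrin name of the form Itga or Itgb with a number or one of the letters v, l, m, x, e and d. The array held 130 probes for 79 such genes among 30344 probes in all. A probe was used where its detection p-value was under 0.05 on at least 3 of the 12 arrays, which left 53 probes of 45 genes among the 17041 probes that passed. These were 29 probes of 24 collagens, 8 probes of 8 laminins and 16 probes of 13 integrins.

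Illumina bead arrays read the RNA of 12 pools of E7.75 embryo parts, 3 in each of 4 groups. Lhx1epiCKO embryos were Lhx1-/flox; Meox2+/Cre and so carried 1 null and 1 conditional allele of Lhx1, a LIM homeodomain transcription factor that acts in head formation. Control embryos were Lhx1+/flox; Meox2+/Cre, so both genotypes carried the conditional allele and the Cre inserted at Meox2, which recombines in the epiblast, and extraembryonic lineages lie largely outside its reach. The anterior and the posterior part of each embryo were dissected apart, and every sample was a pool of 5 parts of the same kind. The tissue label reads embryonic head for all 12 samples, the posterior ones included.

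Collagens are triple-helical chains that form fibrils or, in the case of type IV, the sheet of the basement membrane, and laminins are cross-shaped trimers of an alpha, a beta and a gamma chain that assemble the first basement membranes of the embryo. Integrins are receptors of 1 alpha and 1 beta subunit that span the cell membrane, bind these proteins outside and link them to the actin skeleton inside. During gastrulation the basement membrane lies between the epiblast and the layers beneath it, and it is broken down at the primitive streak where cells leave the epiblast.

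The type IV collagens Col4a1 and Col4a2, which twist together into 1 network molecule, sit head to head in the genome. A stretch just before a start of Col4a2 is shown because both genes are followed below as the base of the basement membrane. RefSeq's promoter windows on GRCm38.p6 place a start of Col4a2 at position 11312805 on the plus strand of chromosome 8 and a start of Col4a1 at position 11312826 on the minus strand, and the RefSeq span of the Col4a1 gene reaches to 11312889. The 30 bases that end just before that start of Col4a2, which lie inside the span of Col4a1, are given below from the plus strand, chr8:11312775-11312804, 5′ to 3′, with the stretch CCCTCCCC in capitals.
Stretch before Col4a2: aatttgttggcgctgccCCCTCCCCtcggc

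Values are the authors' normalized log2 expression values, and a level of 1 probe says nothing about the level of another probe. Probes detected per array ranged from 14243 to 14869 in posterior and from 15416 to 16238 in anterior samples. Lhx1 stood at 8.13, 8.25 and 8.44 in anterior control and at 6.84, 6.65 and 7.09 in anterior Lhx1epiCKO samples. In posterior samples it stood at 8.54, 6.90 and 8.35 in control and at 6.85, 7.18 and 7.30 in Lhx1epiCKO samples, so that posterior control replicate 2 read with the Lhx1epiCKO samples and against its label. Posterior Lhx1epiCKO replicate 3 stood apart from the other 2 pools of its group, with 779 probes more than 1 log2 unit from their mean. The members that passed the test are also given without these arrays. Without both of them, 3 member probes passed in the regional comparison of control embryos and 2 in that of Lhx1epiCKO embryos. Counts over all probes also varied between such settings, as given below, so these counts are not read as a result about the members.

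The regional comparison asked which matrix and receptor genes differed between anterior and posterior parts within a genotype. In control embryos Col2a1, the fibrillar collagen of cartilage and notochord, was higher in anterior samples, and Col26a1, a short collagen with an EMI domain, was higher in posterior samples. Another probe, which the deposited table names Itga9, was higher in anterior samples of both genotypes. In Lhx1epiCKO embryos that probe alone passed the test. None of the 8 laminins passed in either genotype.

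Col2a1, at chr15:97975602-98004724 of GRCm38.p6, was 8.27, 8.05 and 8.10 in anterior control and 7.12, 7.34 and 7.45 in posterior control samples. The 3 anterior pools all lay above the 3 posterior ones. The difference was 0.84 ± 0.158 log2 units (SE, 3 pools in each group) and the level 1.79-fold higher in anterior samples, with limma's Benjamini-Hochberg adjusted p = 0.0100 over all 17041 probes. In Lhx1epiCKO embryos it was 7.90, 7.46 and 7.66 in anterior and 7.18, 6.70 and 7.25 in posterior samples, again with no overlap. That difference was 0.63 ± 0.158 and missed the threshold (limma, adjusted p = 0.0874). Without posterior Lhx1epiCKO replicate 3 it was 0.73 and passed (adjusted p = 0.0188). The control call was lost without anterior control replicate 1 (limma, adjusted p = 0.0566) or posterior control replicate 1 (adjusted p = 0.0534). It held without posterior control replicate 2, at 0.86 (limma, adjusted p = 0.0380).

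Col26a1, at chr5:136741759-136883376, ran the other way in control embryos. Its values were 8.10, 7.48 and 7.69 in anterior and 8.64, 8.82 and 8.71 in posterior control samples, and the groups did not overlap. The anterior level was 1.95-fold lower, a log2 difference of -0.96 ± 0.191 (moderated SE, n = 3 per group, limma, adjusted p = 0.0141). In Lhx1epiCKO embryos the values were 8.35, 8.26 and 8.14 in anterior and 8.65, 8.51 and 7.88 in posterior samples. These overlapped, because posterior replicate 3 lay below all 3 anterior pools, and the difference was -0.09 ± 0.191 (limma, adjusted p = 0.876). Without that array it was -0.33 (adjusted p = 0.367). The control call was lost without anterior control replicate 2 or 3 (limma, adjusted p = 0.0819 and 0.0645), or without posterior control replicate 2 or 3 (adjusted p = 0.0713 and 0.0521).

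The probe named Itga9, the alpha subunit of a receptor for tenascin and related ligands, carries another symbol, 6720458D17Rik, in the platform annotation, so its gene is uncertain. It was 8.02, 7.77 and 7.85 in anterior control and 7.23, 7.44 and 7.24 in posterior control samples. In Lhx1epiCKO embryos it was 8.01, 7.74 and 7.94 in anterior and 7.41, 7.19 and 7.06 in posterior samples. All 6 anterior pools lay above all 6 posterior pools. The difference was 0.58 ± 0.122 in control embryos (limma, adjusted p = 0.0202) and 0.68 ± 0.122 in Lhx1epiCKO embryos (adjusted p = 0.0131). Another Itga9 probe was detected on 1 array, lay between 6.51 and 6.98 and gave no regional value. The control call was lost without anterior control replicate 1 or 3 (limma, adjusted p = 0.113 and 0.0631) and without posterior control replicate 1 or 3 (adjusted p = 0.0797 and 0.0782). It held without posterior control replicate 2 (limma, adjusted p = 0.0315), and the Lhx1epiCKO one without posterior Lhx1epiCKO replicate 3 (adjusted p = 0.0165). The Lhx1epiCKO call was lost without anterior Lhx1epiCKO replicate 1 or 3 (limma, adjusted p = 0.106 and 0.0697), and when the 6 Lhx1epiCKO arrays were fitted alone (adjusted p = 0.130).

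**Figure D1:**
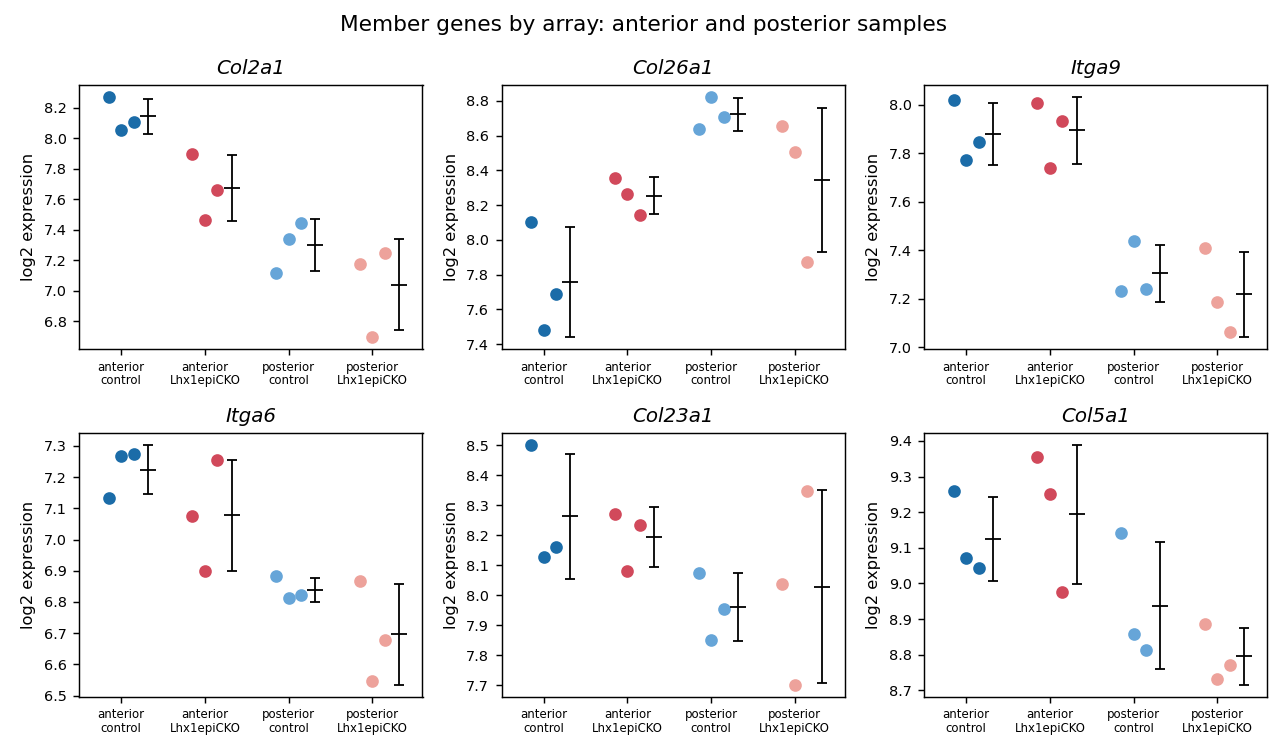
Normalized log2 expression (y axis) of Col2a1, Col26a1, the probe named Itga9, Itga6, Col23a1 and Col5a1, by group (x axis). Points are single pools, and the bar beside each group is its mean with the SD of 3 pools. Col2a1 and the probe named Itga9 lie higher in anterior pools of both genotypes, and Col26a1 lies lowest in anterior control pools.

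In control embryos 3 of the 53 probes passed the test, against 3.01% of all probes tested. In Lhx1epiCKO embryos 1 of 53 passed, against 1.27% of all probes. The groups did not overlap for 10 of the 53 probes in control embryos, where 22.7% of all probes did not overlap. In Lhx1epiCKO embryos this held for 18 of 53, or 34.0%, against 18.0% of all probes, and 16 of the 53 were higher in anterior samples with no overlap, against 10.6% of all probes. Some of the 16, such as Col1a2, Col6a1 and Itgb4, were detected on no posterior Lhx1epiCKO array. Among the 20 member probes detected on all 12 arrays, 6 were higher in anterior samples with no overlap in Lhx1epiCKO embryos and 2 in control embryos. The same share over all probes detected on all 12 arrays was not computed, so these counts have no like share beside them. The median difference of the members was 0.04 in control and 0.11 in Lhx1epiCKO embryos on the log2 scale, and over all probes it was 0.02 and 0.01. Probes of 1 gene share a target, and the shares were not tested against each other.

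Among the laminin receptors, Itga6, the alpha subunit that pairs with beta 1 or beta 4, was 7.13, 7.27 and 7.27 in anterior control and 6.88, 6.81 and 6.82 in posterior control samples. Its values in Lhx1epiCKO embryos were 7.08, 6.90 and 7.26 in anterior and 6.87, 6.55 and 6.68 in posterior samples. The regional groups did not overlap in either genotype. The probe was detected on every anterior array but on only 1 of 3 posterior arrays in each genotype, so the posterior values lay near background. The differences were 0.39 ± 0.115 and 0.38 ± 0.115 (limma, adjusted p = 0.114 and 0.174), so neither passed the threshold. Col23a1, a collagen that spans the cell membrane, was 8.50, 8.13 and 8.16 in anterior and 8.07, 7.85 and 7.95 in posterior control samples by its brighter probe, with no overlap, and a difference of 0.30 ± 0.155 (limma, adjusted p = 0.455). Its other probe gave 0.50 ± 0.150 (limma, adjusted p = 0.120). Col24a1, a fibrillar collagen, was detected on none of the 6 anterior arrays and stood at 6.86, 6.90 and 7.40 in posterior Lhx1epiCKO samples, at least 1.20-fold higher than in anterior ones, counted from the lowest signal of a detected probe (limma, adjusted p = 0.258).

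**Figure D2:**
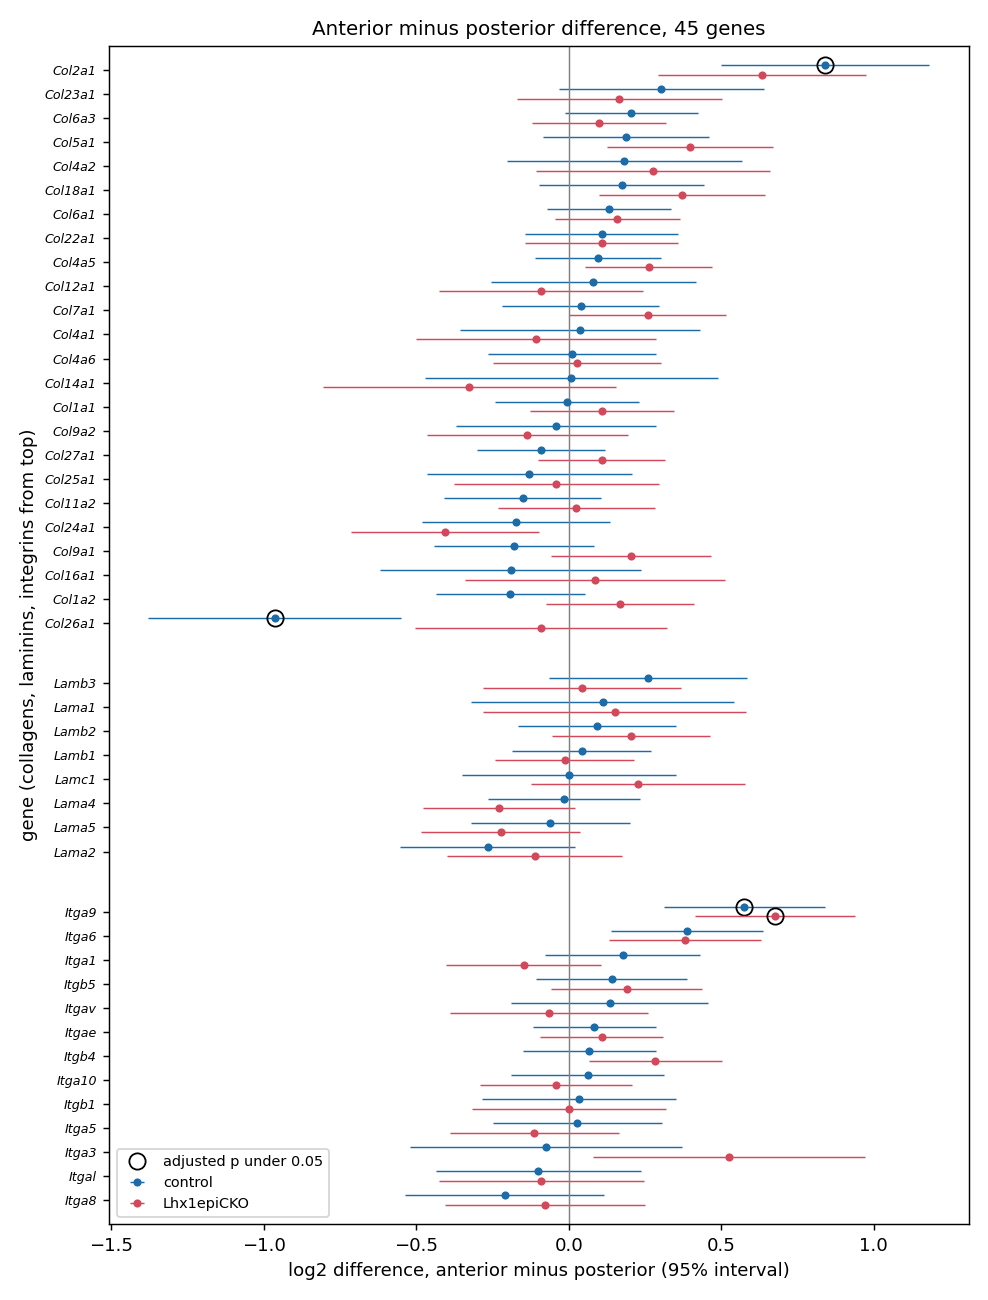
Anterior minus posterior log2 difference (x axis) of the brightest probe of each of the 45 genes (y axis), with limma's unadjusted 95% interval, in control and Lhx1epiCKO embryos. Rings mark adjusted p under 0.05: Col2a1 and the probe named Itga9 above 0 and Col26a1 below 0 in control embryos, and the probe named Itga9 in Lhx1epiCKO embryos. Where a gene was above background on no array of a group, as Col24a1 in anterior samples, the plotted value is not a measured difference.

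None of the core chains of the basement membrane passed the test in any of the 5 contrasts. Col4a1 was 11.52, 11.44 and 11.96 in anterior control, 11.77, 11.49 and 11.55 in posterior control, 11.52, 11.24 and 11.57 in anterior Lhx1epiCKO and 11.61, 11.18 and 11.88 in posterior Lhx1epiCKO samples. Its partner Col4a2 was 10.14, 10.26 and 10.38 in anterior control and 10.16, 10.03 and 10.04 in posterior control samples, and in Lhx1epiCKO embryos it was 10.25, 10.12 and 10.29 in anterior and 10.46, 9.57 and 9.80 in posterior samples. The regional difference in control embryos was 0.04 for Col4a1, with a 95% interval of -0.36 to 0.43, and 0.18 for Col4a2, with an interval of -0.20 to 0.57. Both genes were detected on all 12 arrays, and in each the ranges of the compared groups overlapped, between regions and between genotypes.

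Lama1, the alpha chain of the laminin trimer of the early embryo, was 9.98, 9.59 and 9.34 in anterior and 9.56, 9.25 and 9.77 in posterior control samples. In Lhx1epiCKO samples it was 9.66, 9.72 and 9.50 in anterior and 9.76, 9.06 and 9.61 in posterior pools. Lamc1, the gamma chain of that trimer, was 10.02, 10.12 and 10.10 in anterior control, 10.06, 10.31 and 9.87 in posterior control, 10.23, 10.18 and 10.10 in anterior Lhx1epiCKO and 10.13, 9.52 and 10.18 in posterior Lhx1epiCKO samples. The lowest value of Col4a1, Col4a2, Lama1 and Lamc1 alike was that of posterior Lhx1epiCKO replicate 2. Lamb1, the beta chain, ran from 6.88 to 7.25 over the 12 arrays, and its anterior Lhx1epiCKO pools all lay below the anterior control pools, by -0.11 ± 0.106 (limma, adjusted p = 1.00). Lama5, the alpha chain that takes over in later basement membranes, had group means of 8.79 to 9.01, and Lamb2, a beta chain found at synapses and in the kidney filter, of 7.42 to 7.70. The regional 95% intervals of all 8 laminins lay within 1 log2 unit of 0 in both genotypes. So did those of 16445 of all 17041 probes in control and 16317 in Lhx1epiCKO embryos.

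**Figure D3:**
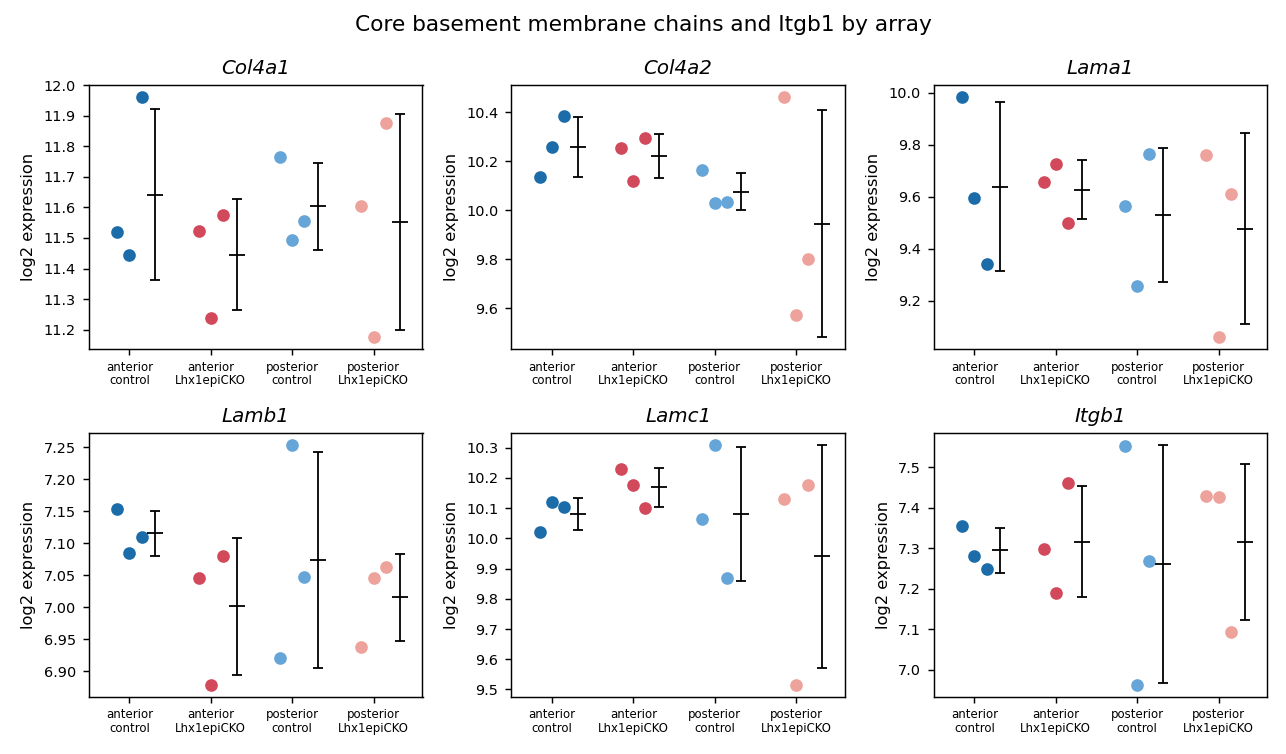
Normalized log2 expression (y axis, scaled per gene) of Col4a1, Col4a2, Lama1, Lamb1, Lamc1 and Itgb1 by group (x axis). Points are single pools, and the bar beside each group is its mean with the SD of 3 pools. Most of the compared groups overlap, and the spread is widest in posterior Lhx1epiCKO pools for Col4a1, Col4a2, Lama1 and Lamc1.

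Of the fibrillar collagens, Col5a1, which starts and limits fibrils of type I, was 9.26, 9.07 and 9.04 in anterior and 9.14, 8.86 and 8.81 in posterior control samples. In Lhx1epiCKO embryos it was 9.35, 9.25 and 8.98 in anterior and 8.89, 8.73 and 8.77 in posterior samples, with no overlap and a difference of 0.40 ± 0.126 that missed the threshold (limma, adjusted p = 0.202). The chains of type I collagen, the main collagen of bone and skin, were near background. Col1a1 was detected on 8 arrays and ran from 6.66 to 6.97, and Col1a2 was detected on 3 and ran from 6.49 to 7.02. No probe of Col3a1, the type III chain, was kept, since its 2 probes were detected on at most 1 array. Col18a1, a basement membrane collagen whose end piece is endostatin, was 12.24, 12.32 and 12.16 in anterior and 12.01, 11.80 and 11.79 in posterior Lhx1epiCKO samples by its brighter probe, with no overlap and a difference of 0.37 ± 0.125 (limma, adjusted p = 0.237). In control embryos it was 12.19, 12.24 and 12.26 in anterior and 12.34, 12.01 and 11.83 in posterior samples, which overlapped.

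Integrin beta 1, encoded by Itgb1, is the shared partner of most alpha subunits. It was 7.36, 7.28 and 7.25 in anterior and 7.55, 6.96 and 7.27 in posterior control samples, and the groups overlapped. In Lhx1epiCKO embryos it was 7.30, 7.19 and 7.46 in anterior and 7.43, 7.43 and 7.09 in posterior samples, again with overlap. Itgb5, which pairs with the alpha v subunit to bind vitronectin, had group means of 9.70 to 9.89, and Itgav, the alpha v subunit, of 6.81 to 7.02. Itga5, the fibronectin receptor subunit, had group means of 7.90 to 8.01 by its brighter probe. Regional differences of these 4 genes in control embryos lay between 0.03 and 0.14 on the log2 scale, and none passed the test.

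The genotype comparison asked what the loss of Lhx1 from the epiblast changed in each region. No collagen, laminin or integrin probe passed limma's test in anterior samples, where 0.0704% of all probes passed, nor in posterior samples, where 0.0% did. At an unadjusted p under 0.05 there were 3 of 53 probes in anterior and 4 of 53 in posterior samples, against 329 and 1643 of all 17041 probes. The unadjusted 95% interval of every one of the 53 probes lay within 1 log2 unit of 0 in both regions. So did that of 16795 of all 17041 probes in anterior and 16463 in posterior samples. For a probe near background in a group, such an interval does not bound the change of the gene. The members' median was 0.01 in anterior and -0.05 in posterior samples, against 0.00 and 0.01 over all probes.

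In anterior samples Col2a1 had the lowest and Col26a1 the highest genotype value among the members. Col2a1 read -0.47 ± 0.158 (Lhx1epiCKO minus control, 95% interval -0.81 to -0.13; limma, adjusted p = 1.00), and its 3 Lhx1epiCKO pools lay below the 3 control pools. Col26a1 read 0.50 ± 0.191 (interval 0.08 to 0.91; limma, adjusted p = 1.00), and its 3 Lhx1epiCKO pools lay above the control pools. With arrays weighted by their quality, Col26a1 was 0.66 and passed (limma, adjusted p = 0.00284). These values share the anterior control pools with the regional comparison, so they are not separate evidence.

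Col4a5, a type IV chain of kidney and other special basement membranes, was 7.28, 7.19 and 7.26 in anterior control and 7.41, 7.55 and 7.49 in anterior Lhx1epiCKO samples. The groups did not overlap, and the difference was 0.24 ± 0.0955 by its brighter probe (limma, adjusted p = 1.00). Its other probe gave 0.07 ± 0.165. Col16a1, a fibril-associated collagen, gave 0.21 and Itga6 -0.15 (log2 differences, limma, adjusted p = 1.00 each). Col1a2 was above background on no anterior control array and on 2 of the 3 anterior Lhx1epiCKO arrays. Its groups did not overlap, and the Lhx1epiCKO mean was 1.03-fold above the lowest signal of a detected probe (limma, adjusted p = 1.00). The probes of Col18a1 disagreed, with 0.01 by the brighter and -0.19 by the other, and those of Itgae gave -0.02 and -0.13. The groups did not overlap for 8 of 53 probes in anterior samples, against 12.2% of all probes.

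In posterior samples 3 integrins are described in full. Itgb4, the beta subunit of hemidesmosomes, was 6.82, 6.77 and 6.88 in control and 6.58, 6.48 and 6.52 in Lhx1epiCKO samples, with no overlap (limma, adjusted p = 0.504). The probe was detected on only 1 of the 3 control arrays and on none of the 3 Lhx1epiCKO arrays. Both groups were thus near background, which gives no fold. Itga1, a collagen-binding subunit, was 6.57, 6.76 and 6.73 in control, where it was detected on no array, and 7.03, 7.20 and 6.77 in Lhx1epiCKO samples. Itga1 was detected on 2 of the 3 Lhx1epiCKO arrays. Its groups did not overlap, but the lowest Lhx1epiCKO value, 6.77, lay barely above the highest control value, 6.76. The mean of the Lhx1epiCKO samples was 1.11-fold above the lowest signal of a detected probe (limma, adjusted p = 0.504). That fold carries no error and includes the array without detection.

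Itga3, a laminin-binding subunit, was 8.09, 8.05 and 7.79 in posterior control and 7.86, 7.64 and 6.83 in posterior Lhx1epiCKO samples. The groups overlapped, and the lowest value belonged to posterior Lhx1epiCKO replicate 3, the pool that stood apart. The difference was -0.53 ± 0.206 (limma, adjusted p = 0.504), and without that array it was -0.23 (adjusted p = 0.574). Col14a1, a fibril-associated collagen, was 6.76, 6.70 and 6.70 in posterior control samples, on no array above background, and 6.59, 7.02 and 7.82 in posterior Lhx1epiCKO samples. The groups overlapped, and replicate 3, the pool that stood apart, was the highest (limma, adjusted p = 0.544). Col7a1, the chain of anchoring fibrils, gave a log2 difference of -0.24 ± 0.118 (limma, adjusted p = 0.532). Col9a1 was above background on no posterior Lhx1epiCKO array by its brighter probe, whose groups overlapped, while its other probe gave a log2 difference of -0.00. Lama4, an alpha chain of vessel basement membranes, was above background on no posterior control array, and its groups overlapped. Col25a1 gave 0.01 by its brighter probe, and its other probe was above background on no posterior control array, and neither it nor Col9a1 or Lama4 passed the test. The groups did not overlap for 4 of 53 probes, against 9.33% of all probes.

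**Figure D4:**
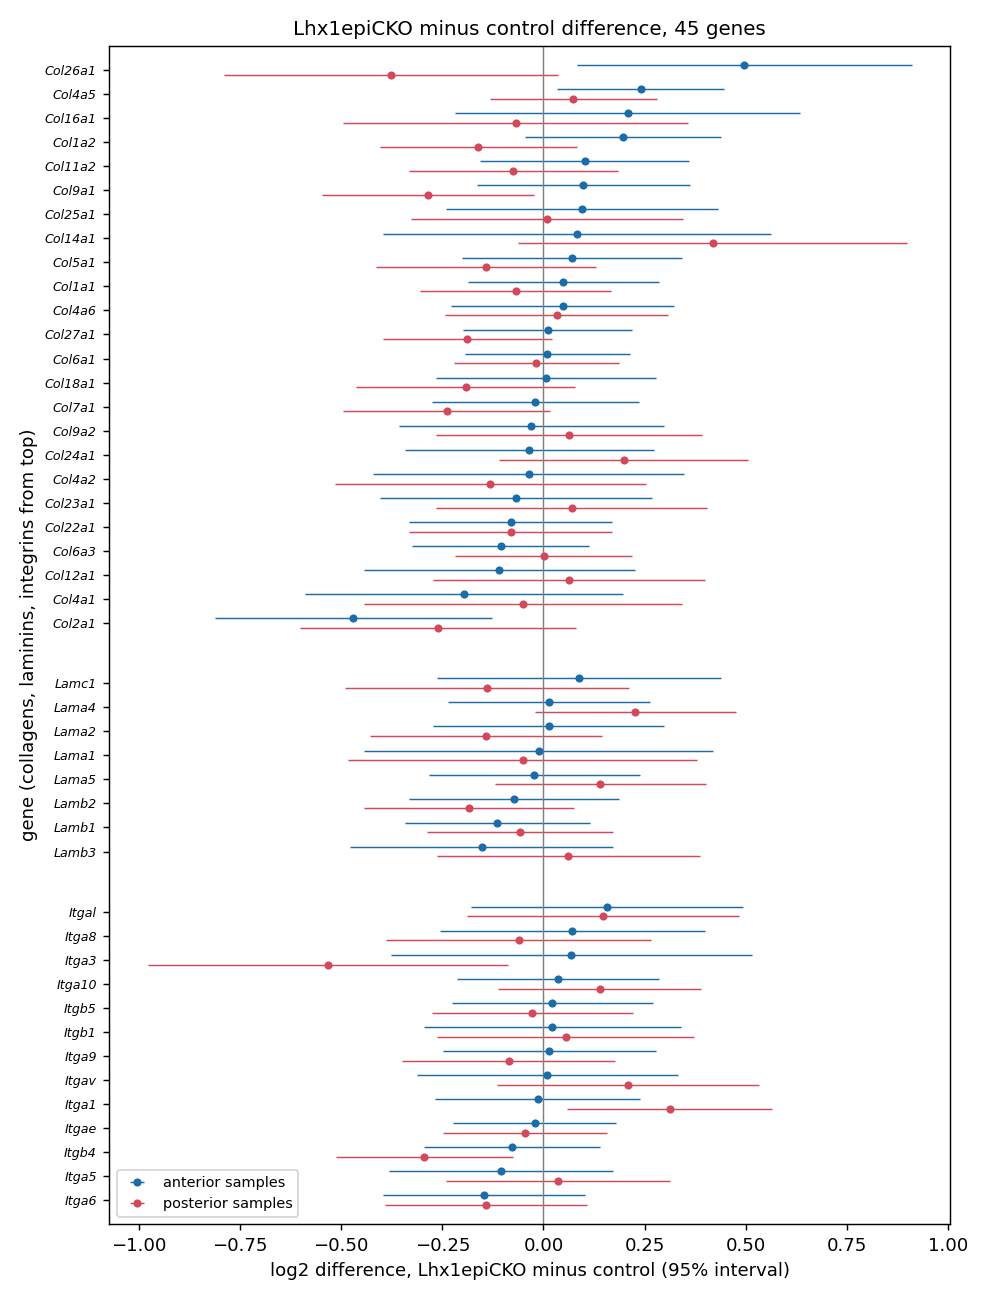
Lhx1epiCKO minus control log2 difference (x axis) of the brightest probe of each of the 45 genes (y axis), with limma's unadjusted 95% interval, in anterior and posterior samples. No gene has adjusted p under 0.05, and Col26a1 and Col2a1 lie farthest from 0 in anterior samples. For genes above background on no array of a group, such as Itga1 in posterior control, the plotted value is not a measured difference.

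The difference between the anterior and the posterior genotype effect was tested as an interaction. No member passed, and 0.0% of all probes did in limma's test. At an unadjusted p under 0.05 there were 3 of 53 members and 581 of all probes. The member of smallest p was Col26a1, at 0.87 ± 0.271 (95% interval 0.29 to 1.46; limma, adjusted p = 0.981), where the anterior effect was 0.50 and the posterior effect -0.38. Over the alternatives tried it ran from 0.59 to 1.05 and passed in none. Among the other members of smallest p, Itga3 gave 0.60 ± 0.291. Col23a1 gave -0.14 by its brighter and -0.24 by its other probe. The probes of Col9a1 gave opposite signs. Col9a1, Col1a2, Itga1, Col24a1 and Lama4 were each above background on no array of at least 1 group, so their differences are not measured on both sides. The interval of 50 of the 53 members lay within 1 log2 unit of 0, against 15844 of all 17041 probes. The regional differences of Col26a1 in the 2 genotypes are thus not shown to differ by this test.

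Genes that build, modify, cleave or read the same matrix were followed in 5 further lists. Of 17 kept partners of the basement membrane, such as nidogens and fibulins, 1 passed in the regional comparison of control embryos. This was Fn1, fibronectin, at 10.15, 10.47 and 10.52 in anterior and 11.14, 11.02 and 11.56 in posterior samples, a difference of -0.86 ± 0.185 (limma, adjusted p = 0.0230). Of 18 kept collagen-processing genes, P4ha2, a prolyl hydroxylase subunit, passed, at 8.87, 8.72 and 8.44 in anterior and 9.26, 9.55 and 9.16 in posterior control samples and a difference of -0.65 ± 0.150 (adjusted p = 0.0351). Both were lower in every anterior control pool than in every posterior control pool. In Lhx1epiCKO embryos Fn1 gave -0.53 and P4ha2 -0.31 (limma, adjusted p = 0.254 and 0.442). None of 12 matrix proteases and their inhibitors, 18 integrin adhesion complex genes and 5 other matrix receptors passed in any of the 5 contrasts, and no gene of the 5 lists passed in a genotype contrast.

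The regional values of Col2a1, Col26a1 and the probe named Itga9 stood beside markers that mark the regions. Of 8 nascent mesoderm genes, 6 were lower in anterior control samples (T, Mixl1, Fgf8, Tbx6, Wnt3a and Snai1) and 5 in anterior Lhx1epiCKO samples. Their mean log2 level per array was 8.02 to 8.12 in anterior control, 8.20 to 9.12 in anterior Lhx1epiCKO, 10.14 to 10.21 in posterior control and 9.76 to 10.14 in posterior Lhx1epiCKO samples. Of 4 kept anterior neuroectoderm genes, Otx2 and Sox2 passed as higher in anterior control samples and Otx2 in anterior Lhx1epiCKO samples. The difference was above 0 for 3 of the 4 in control and for only 2 of the 4 in Lhx1epiCKO embryos, and the others were lower in anterior samples. Six3 and Rax were detected on no array. Of 6 kept definitive endoderm genes, Trh, Cer1 and Foxa1 were higher in anterior control samples and Cer1 in anterior Lhx1epiCKO samples, with control mean levels of 10.21 to 10.31 against 9.28 to 9.52 in posterior ones. In anterior Lhx1epiCKO samples, beside the anterior genotype values of Col2a1 and Col26a1, the mean level was 9.69 to 9.79 for the endoderm list. That of the neuroectoderm list was 7.68 to 7.80 there, against 8.21 to 8.25 in anterior control samples, and neither list overlapped between the genotypes. No gene of either list passed in the anterior genotype contrast. The part of these markers in the collagen and integrin values was not tested, and in these bulk samples fewer cells of a type and less RNA per cell cannot be told apart.

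Markers of the extraembryonic layers, which make much basement membrane, were also read. Of 10 kept visceral endoderm genes and 5 parietal endoderm genes, none passed in any contrast. The mean log2 level of the visceral list was 11.20 to 11.39 over anterior control and 11.29 to 11.36 over anterior Lhx1epiCKO arrays. It was 11.09 to 11.59 over posterior control and 10.25 to 11.30 over posterior Lhx1epiCKO arrays. For the parietal list it was 8.29 to 8.44, 8.26 to 8.33, 8.07 to 8.12 and 7.67 to 8.12 in these groups, in the same order. The lowest mean of both lists was that of posterior Lhx1epiCKO replicate 3, the pool that stood apart. Apoa1 was 7.20 there, against 13.60 and 13.70 in the other posterior Lhx1epiCKO pools. Of 4 kept trophoblast genes and 2 kept maternal decidua genes none passed, while Esx1, Prl3d1 and Tpbpa of trophoblast and Prl3c1, Igfbp1, Lum and Hoxa11 of decidua were detected on no array. Elf5, a trophoblast gene, was nonetheless detected on all 6 anterior and none of the 6 posterior arrays, at 6.82, 8.01 and 8.90 in anterior control and 7.37, 7.11 and 8.41 in anterior Lhx1epiCKO samples. It was at least 2.10-fold and 1.71-fold higher there than in posterior samples of the same genotype (limma, adjusted p = 0.127 and 0.340). Dcn, a decidua gene, was detected on 3 anterior control, 2 anterior Lhx1epiCKO and no posterior arrays. Of 13 blood and endothelium genes, Lmo2 was lower in anterior control samples. Of 4 epiblast genes, Pou5f1 and Utf1 passed in control embryos, 1 in each direction. Their part in the members' values was not tested.

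Of the 79 genes, 34 had no probe that passed the detection rule. These were 20 collagens, of which 11 were detected on no array, 3 laminins and 11 integrins. Among the integrins were the leukocyte subunits Itgad and Itgam, detected on no array, and Itgax and Itgb2, detected on at most 2. Itga2 and Itga4 were also detected on no array. A low signal here says that the probe was not well above background at this input, not that the gene was silent. Of the kept probes, 10 collagen, 5 laminin and 5 integrin probes were detected on all 12 arrays. For 8 genes several probes were kept, and their signs agreed for 6 of 8 genes in the regional comparison of control embryos and for 3 of 8 in the difference of genotype effects.

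The start regions of the members were searched for short motifs in RefSeq's windows from 250 bases before to 50 after each start, on both strands, for the 32 of 45 genes listed there, which have 36 windows. TAATTA, a core bound by homeodomain proteins, was in 1 of 36 member windows (2.78%), that of Col11a2, against 5.29% of 32851 windows of all genes. GGGCGG, the GC box, was in 23 of 36 windows (63.9%) against 35.7% of all, and TATAAA, the TATA box, in 1 of 36 (2.78%) against 13.6%. CCAAT was in 11 of 36 (30.6%) against 37.4%, the windows of Col4a1 and Col4a2 included. A match is only a string of letters, and a window without one says nothing of the factor. Col2a1 and Col26a1 were not in the table.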

How the data were processed

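The values analysed are normalized log2 expression values that the authors deposited for 12 Illumina arrays. The submitters' processing notes name GenomeStudio and limma, with no version or order, while how the arrays were normalized and background-corrected is not stated. Detection p-values per probe and array were deposited with them. The log2 values of another deposited table differed by at most 5.0e-09. Array medians ran from 6.81 to 6.83, and a shift shared by most genes could not show on this scale. The number of arrays, 3 per group, limits the precision.

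The members, the 5 pathway lists, the marker lists and the rule for named genes were chosen with earlier results of these data known. Named were Lhx1, every member that passed the test, in each genotype contrast and the difference up to 4 members of smallest p per direction, a set of core chains and receptors whatever their values, and pathway genes that passed in a regional contrast. Lamb2, the regional values of Col23a1 and Col24a1, the markers Elf5 and Dcn, the integrins that were not kept and Col11a2 were named after their values were seen. Platform symbols matched the deposited name or were absent for all members but 2 probes, of which 1 was kept.

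The deposited values were fitted with limma 3.58.1 (lmFit and eBayes, R 4.3.3), using all 12 arrays, a mean for each group and no covariates. There were 8 residual and 4.87 prior degrees of freedom. The 5 contrasts were adjusted by Benjamini-Hochberg over 17041 probes each and tested on 2 sides, and a probe was called at an adjusted p under 0.05. Intervals are limma's 95% intervals per probe, not adjusted for the number of probes. The probe of highest mean over the 12 arrays stood for a gene. The labels call the pools biological replicates and do not say whether anterior and posterior pools of 1 number came from the same embryos. The script was tested on simulated data with known changes. Alternatives were other filters, normalizations, variance models, array weights, replicate blocks and leaving out each array in turn.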

Additional observations from a re-analysis of the deposited data

How the results depend on the processing

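Of the collagen, laminin and integrin probes, 3 passed in the regional comparison of control embryos, against 5 with array weights and 1 to 3 when 1 array was left out (1 without anterior control replicate 1 or 3 or posterior control replicate 1). In Lhx1epiCKO embryos 1 passed, against 2 with array weights, 2 with an intensity trend and robust prior, 2 without both posterior arrays in doubt, 0 when only the arrays compared were fitted, and 0 to 2 with 1 array left out (0 without anterior Lhx1epiCKO replicate 1 or 3, and 2 without posterior Lhx1epiCKO replicate 1 or 3). In anterior samples the genotype count was 0, against 1 with array weights. The posterior genotype count and that of the difference were 0 under all 21 alternatives run for each. Over single named probes, 736 of 755 values stayed on their side of the threshold, 14 lost and 5 gained it, none of the called values turned sign, and 7 uncalled values did. Most of these values belong to results not called in the main fit, which had no call to lose. The control regional call held in 20 of 22 alternatives for Col2a1, 18 for Col26a1 and 17 for the probe named Itga9. The Lhx1epiCKO call of that probe held in 19 of 22.

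Over all 17041 probes, the control regional count was 513, against 276 to 906 with 1 array left out and 373 to 1013 under the other alternatives, and the Lhx1epiCKO one 216, against 96 to 385 and 64 to 425. The anterior genotype count was 12, against 2 to 42 and 8 to 246, the posterior one 0, against 0 to 2 and 0 to 4, and that of the difference 0, against 0 to 3 and 0 to 2. The causes were not tested.

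Same-numbered pools of the 2 genotypes did not deviate together in every pair (correlations of 0.24, 0.05 and 0.02 in anterior samples). Same-numbered anterior and posterior pools gave -0.003, -0.04 and 0.02 in control and 0.07, 0.25 and 0.08 in Lhx1epiCKO embryos. Pools of different numbers gave -0.18 to 0.06 in Lhx1epiCKO embryos. The numbers were not taken as pairs in the main fit, and these values do not settle whether such pools share embryos. With the replicate block by number, 3 and 1 member probes passed in the regional contrasts of control and Lhx1epiCKO embryos. With the replicate block by genotype and number, 2 and 1 passed, and the probe named Itga9 in control embryos was 0.58 (limma, adjusted p = 0.0501). The genotype contrasts and their difference kept 0 members under the blocks run. Of the 53 member probes, 20 were detected on all arrays, and signal over background limits the reading of the rest.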

Other observations

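Itga2b, the integrin subunit of platelets and early blood progenitors, was outside the name rule and was read by 2 probes. The brighter was 6.82, 6.77 and 6.68 in anterior control and 7.04, 6.84 and 7.03 in anterior Lhx1epiCKO samples, with no overlap, while posterior samples read 6.92, 6.89 and 6.66 in control and 6.74, 7.20 and 7.07 in Lhx1epiCKO embryos. Its anterior genotype difference was 0.22 ± 0.127 (limma, adjusted p = 1.00). The other probe gave 0.11 ± 0.132.

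The spread between pools differed by group. The median SD of the 53 member probes was 0.101 in anterior control, 0.0856 in anterior Lhx1epiCKO, 0.164 in posterior control and 0.198 in posterior Lhx1epiCKO samples, and over all 17041 probes it was 0.0976, 0.0852, 0.146 and 0.206.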
